A study of Homo sapiens with 8 samples.

Results

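The 9 cytokine genes described here are messenger genes of T cells: IL10, IL6, IL13, IL5, IL9, IL21, IL22, IL26 and IFNG. They were chosen by symbol, as the probe sets of the array whose annotated gene symbol is 1 of these names. A probe set of that symbol was found for 8 of the 9, among 17709 named transcript probe sets in all, and IL9 had none of that name. The design asked what a DNA demethylating agent (OR21), an EZH2 inhibitor (EPZ-6438, also called tazemetostat and written EPZ in the labels) and their combination do to gene expression. MT-1, a T cell line derived from adult T cell leukaemia, was left untreated or received 500 nM OR21, 2500 nM EPZ-6438, or 500 nM OR21 with 2500 nM EPZ-6438. MT-2, a T cell line transformed by the retrovirus HTLV-1, was left untreated or received 100 nM OR21, 500 nM EPZ-6438, or 100 nM OR21 with 500 nM EPZ-6438. Exposure lasted 96 h in every treated group, with a second addition of compound at 48 h. Total RNA was measured on 8 1-colour arrays, 1 for each line and treatment, so no difference within a line has a replicate error, and every MT-1 dose was higher than the MT-2 dose of the same compound. Each model is a single established line in culture.

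Cytokine genes are switched on in different T helper programmes. IFNG belongs to the type 1 programme, IL13, IL5 and IL9 to type 2 and related programmes, IL21 to follicular helper cells, and IL22 and IL26 to type 17 and type 22 cells. IL10 is an anti-inflammatory cytokine of regulatory and helper cells, and IL6 is a pleiotropic inflammatory cytokine made by many cell types. IL10, IL22 and IL26 are relatives within the IL-10 family, and IFNG, IL26 and IL22 lie next to each other on chromosome 12. In resting T cells many of these loci are held closed by DNA methylation and by the H3K27 methyl mark that EZH2 writes, which is the background to testing both classes of compound on them.

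Levels are the deposited log2 values, whose highest, 18.91, lies beyond the usual range of log2 scanner intensities, so that a rescaling by the authors after normalization is possible and no linear folds are given. Background was set on each array at the 95th percentile of its negative controls and lay between 7.19 and 7.80. A level at or under it is called not above background. Where only 1 of 2 arrays compared was above background, the difference was taken against the background of the other array and is given as "at least" or "or lower", and where neither was, or the higher level did not exceed both backgrounds, no difference is given. Array medians lay between 6.44 and 6.68 and between 8126 and 9718 transcript probe sets per array were above background. Of 11 T cell markers measured, CD5 and IL2RA were above background on all 8 arrays, CD28 and PTPRC on the 4 of MT-1 and CD4 on the 4 of MT-2, CD7 on 5 arrays, whereas CD3D, CD3E, CD3G, CD2 and LCK were above it on none.

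The start sites of the members whose levels differed, IL22 excepted, are shown because the agents act on chromatin and DNA methylation. Cytosines followed by guanine (CG) are the sites that DNA methylation uses. The sequences are RefSeq windows of 300 bases, 250 before and 50 after an annotated start, from GRCh38.p14, written 5′ to 3′ on the strand of the gene. RefSeq windows were found for 7 members (IL10, IL21, IL13, IL9, IL6, IFNG and IL26), with 3 for IL10 and 2 for IL13. None was found for IL22 or IL5. Capitals mark each CG and each match, on either strand, to an NF-kappaB-like motif (GGG, any 2 bases, TTTCC). For IL10 the outermost of the 3 starts is printed, and for IL13 both.
IL26, chr12:68225761-68226060, minus strand: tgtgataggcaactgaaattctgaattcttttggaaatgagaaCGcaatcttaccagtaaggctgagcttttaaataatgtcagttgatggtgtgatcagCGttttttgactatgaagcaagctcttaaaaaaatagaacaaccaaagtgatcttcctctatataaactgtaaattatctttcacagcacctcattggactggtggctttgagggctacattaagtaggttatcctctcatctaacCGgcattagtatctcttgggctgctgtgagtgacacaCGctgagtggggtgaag
IL6, chr7:22726950-22727249, plus strand: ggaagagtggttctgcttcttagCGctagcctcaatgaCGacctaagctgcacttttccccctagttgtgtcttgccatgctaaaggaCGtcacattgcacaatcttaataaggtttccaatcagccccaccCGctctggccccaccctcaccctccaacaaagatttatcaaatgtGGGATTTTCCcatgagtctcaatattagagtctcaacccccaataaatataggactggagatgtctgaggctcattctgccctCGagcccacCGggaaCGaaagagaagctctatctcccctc
IL10, chr1:206772445-206772744, minus strand: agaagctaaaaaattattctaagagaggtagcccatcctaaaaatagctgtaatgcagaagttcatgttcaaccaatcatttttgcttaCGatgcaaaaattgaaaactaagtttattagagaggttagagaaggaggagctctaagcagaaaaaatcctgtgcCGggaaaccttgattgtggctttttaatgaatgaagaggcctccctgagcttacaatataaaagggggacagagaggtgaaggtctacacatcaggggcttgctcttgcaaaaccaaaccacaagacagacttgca
IL13 upstream start, chr5:132656272-132656571, plus strand: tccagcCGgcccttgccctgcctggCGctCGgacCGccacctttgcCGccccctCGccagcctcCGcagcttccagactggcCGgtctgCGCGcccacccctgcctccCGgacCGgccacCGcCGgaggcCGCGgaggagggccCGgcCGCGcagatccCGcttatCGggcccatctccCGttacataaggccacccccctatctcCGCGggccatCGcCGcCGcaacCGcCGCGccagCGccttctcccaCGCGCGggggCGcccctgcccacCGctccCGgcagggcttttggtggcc
IL13 downstream start, chr5:132657923-132658222, plus strand: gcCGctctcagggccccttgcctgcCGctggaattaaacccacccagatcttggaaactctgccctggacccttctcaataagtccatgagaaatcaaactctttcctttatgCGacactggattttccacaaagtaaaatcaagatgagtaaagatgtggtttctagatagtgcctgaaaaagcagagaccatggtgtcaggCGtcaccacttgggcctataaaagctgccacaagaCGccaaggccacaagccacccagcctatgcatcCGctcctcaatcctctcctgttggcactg

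Most of these windows were poor in CG. The IL26 window held 4 CG, the printed IL10 window 2, the IL6 window 7 and the downstream IL13 window 6, against a median of 14 over all 35116 RefSeq windows of this length. As few CG as in the IL26 window, or fewer, were present in 29.6% of all windows. The upstream IL13 window stood apart with 37 CG, a count that 90.1% of windows did not exceed. Beyond the printed ones, the IFNG window had 2 CG (chr12:68159691-68159990), the IL21 window 3 and the IL9 window 4. The IL6 window held 1 match to the NF-kappaB-like motif, which 1.91% of all windows held, and 1 match to the C/EBP-like TTGCNNAA, present in 10.5%. The same C/EBP-like letters occurred once in the printed IL10 window, and the IL26 window held 1 match to the GATA-like AGATAA (10.3% of windows). The AP-1-like TGANTCA (7.71% of windows) and the STAT-like TTCNNNGAA (7.66%) were not found in the printed windows. Among windows not printed, 1 of the other IL10 windows (chr1:206770554-206770853) held 1 AP-1-like match, the IL9 window 1 NF-kappaB-like and 1 AP-1-like match, and the IFNG window 1 STAT-like match. Motifs were searched on both strands, and no 2 matches of different motifs overlapped in any window of the members. A match is a run of letters and was not tested as a binding site.

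The 8 members fell into 4 patterns. IL10 and IL6 were above background in MT-2 and not in MT-1. IL13 was above background in MT-2 with OR21 and with the combination. IL26 was above background on 3 MT-2 arrays, all but the combination, and in MT-1 with OR21 and with the combination, and IL22 in MT-1 with the combination. IL5, IL21 and IFNG were above background on 0 of the 8 arrays. A probe set was tested where its highest value reached the table median of 6.573, which held for 5 members (IL10, IL6, IL13, IL26 and IL22). IL13 and IL22 passed through the arrays on which they were high, and IL10 and IL6 through the MT-2 arrays alone. Counts over these 5, that between the untreated lines included, are therefore a description only.

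**Figure D1:**
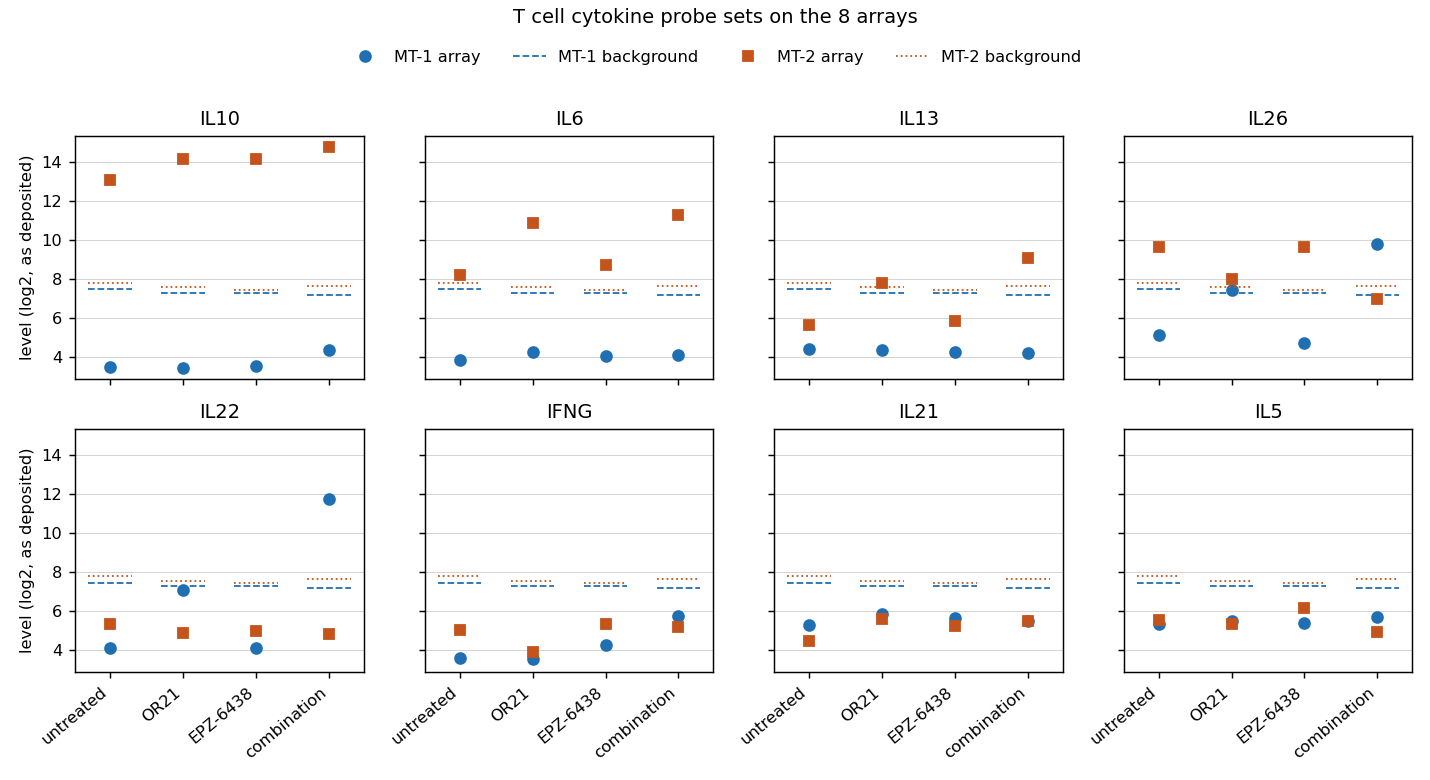
Each panel plots the deposited log2 level of 1 cytokine probe set (vertical axis) in each of the 4 treatment groups (horizontal axis), with circles for MT-1 and squares for MT-2, 1 array per point. Short horizontal lines give the background of each array, dashed for MT-1 and dotted for MT-2. IL26 moves in opposite directions in the lines and IL22 stands above background on 1 array.

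IL10, which restrains inflammatory responses, was the member with the widest separation between the lines. In MT-2 it stood at 13.07 untreated, 14.15 with OR21, 14.14 with EPZ-6438 and 14.79 with the combination. In MT-1 it stood at 3.46, 3.44, 3.51 and 4.33 in the same order, and none of these was above background. All 4 MT-2 arrays thus lay above all 4 MT-1 arrays. In bulk RNA, fewer expressing cells and less RNA per cell cannot be told apart, here or for the other members. Untreated MT-2 was higher than untreated MT-1 by at least 5.62 log2 units, a bound of 4.39 where the 99th percentile of the negative controls stood for background. Within MT-2, OR21 was followed by a level higher by 1.08, EPZ-6438 by 1.07 and the combination by 1.71. IL10 was the member that differed by 1 or more with EPZ-6438 alone. The single agents were followed by near-equal IL10 levels in MT-2, and the combination exceeded each of them by 0.64. The change with the combination differed by -0.43 from the sum of the changes with the single agents.

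IL6, the ligand of the IL6R and gp130 receptor pair, differed mainly with OR21. In MT-2 it stood at 8.18 untreated, 10.88 with OR21, 8.71 with EPZ-6438 and 11.27 with the combination. The 2 arrays that received OR21 were the high ones. In MT-1 IL6 lay between 3.85 and 4.23, not above background on any array. Against untreated MT-2, the IL6 level was higher by 2.70 with OR21, 0.52 with EPZ-6438 and 3.09 with the combination. Adding EPZ-6438 to OR21 was accompanied by a further 0.40, and adding OR21 to EPZ-6438 by 2.57. The combination differed by -0.13 from the sum of the single changes. Untreated MT-2 lay above untreated MT-1 by at least 0.72, the untreated level being close to background. With the 99th percentile as background, the IL6 change was at least 1.57 with OR21 and at least 1.96 with the combination, and none could be given for EPZ-6438.

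IL13, a type 2 cytokine that acts on epithelium, B cells and macrophages, had the same order of arrays in MT-2 as IL6. Its MT-2 levels were 5.64 untreated, 7.79 with OR21, 5.82 with EPZ-6438 and 9.08 with the combination. The 2 arrays with OR21 were above background, and the untreated and EPZ-6438 arrays were not. In MT-1 IL13 lay between 4.17 and 4.38 and was not above background. With the combination MT-2 was higher than untreated MT-2 by at least 1.27. With OR21 alone the IL13 level did not exceed the background of the untreated array, so no difference is given for it. The combination exceeded OR21 alone by 1.28 and EPZ-6438 alone by at least 1.64. No IL13 difference could be given with the 99th percentile as background.

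IL26, an IL-10 family cytokine of type 17 cells, moved in opposite directions in the lines. In MT-1 it stood at 5.14 untreated, 7.43 with OR21, 4.71 with EPZ-6438 and 9.77 with the combination. The OR21 and combination arrays were above background, OR21 by a narrow margin (its background was 7.29). In MT-2 the levels were 9.64 untreated, 7.99 with OR21, 9.64 with EPZ-6438 and 6.94 with the combination. The combination array was the low one and was not above its background of 7.64. Against the untreated array of its line, the combination left IL26 at least 2.31 higher (MT-1), while the MT-2 difference was -2.00 or lower. OR21 alone was followed by a difference of -1.65 in MT-2, and EPZ-6438 alone by 0.00.

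The order of the lines for IL26 turned with the combination, not with either agent alone. Untreated MT-2 was above untreated MT-1 by at least 2.18, whereas with the combination MT-2 differed from MT-1 by -2.13 or lower. With OR21 alone MT-2 stood 0.56 above MT-1, and with EPZ-6438 alone at least 2.37 above it. Adding EPZ-6438 to OR21 was accompanied by a level higher by 2.34 in MT-1 and by a difference of -0.35 or lower in MT-2. The size of these IL26 differences depended on where background was set. With the 99th percentile they were at least 1.09 with the combination in MT-1, -0.56 or lower with OR21 in MT-2 and -0.05 or lower with the combination in MT-2, and adding EPZ-6438 to OR21 in MT-1 gave at least 0.31.

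IL22, a cytokine by which T cells act on epithelial barriers, had the largest bound among the members against an untreated array. In MT-1 it stood at 4.10 untreated, 7.07 with OR21, 4.09 with EPZ-6438 and 11.74 with the combination. The combination array was the only one of the 8 above background, and the OR21 array lay just under its background of 7.29. In MT-2 IL22 lay between 4.81 and 5.32. With the combination the MT-1 level was higher than untreated MT-1 by at least 4.28, than OR21 alone by at least 4.44 and than EPZ-6438 alone by at least 4.47. With the 99th percentile as background the 3 bounds were 3.05, 2.27 and 2.34. Since both single-agent levels lay under background, no difference from the sum of the single agents is given.

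**Figure D2:**
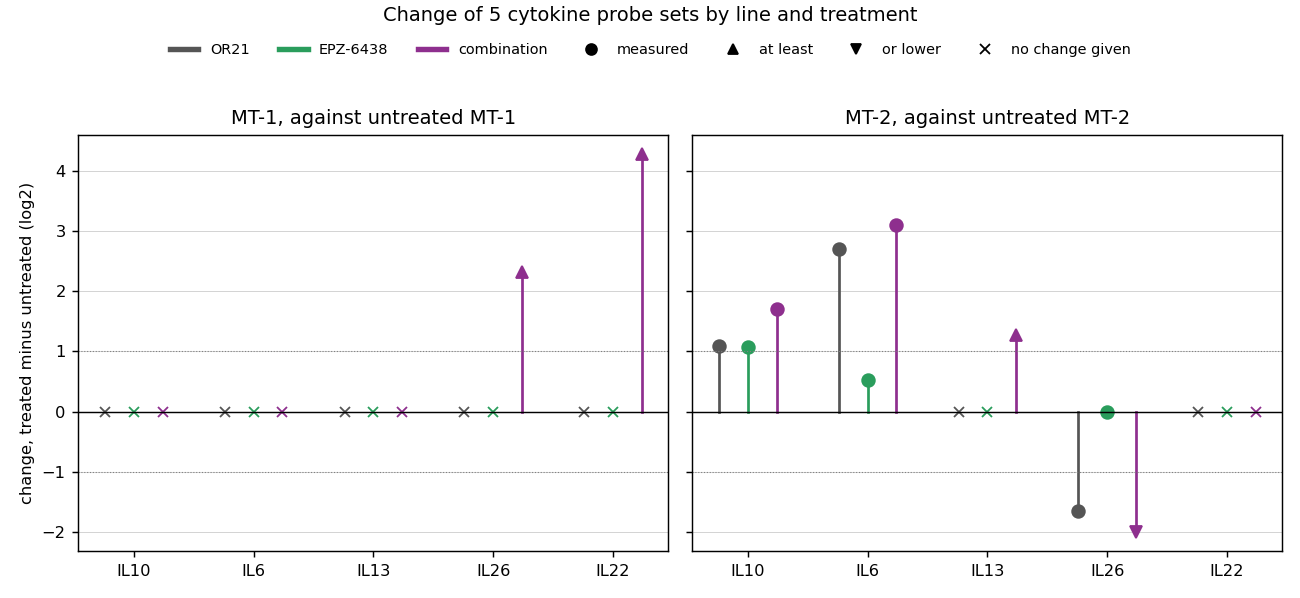
Changes of 5 members against the untreated array of the same line, in log2 units, for MT-1 (left) and MT-2 (right), coloured by treatment. Circles are measured differences, upward triangles are lower bounds ("at least"), downward triangles are upper bounds ("or lower") and crosses at 0 mark comparisons for which no difference is given, not a difference of 0. In MT-1 bounds could be given for IL26 (2.31) and IL22 (4.28) with the combination, and in MT-2 IL6 has the largest change (3.09).

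IFNG, the type 1 cytokine that activates macrophages, was not above background on any array. Its level was 3.60 in untreated MT-1 and 5.77 in MT-1 with the combination, and between 3.88 and 5.33 in MT-2. IL21, which supports B cell help, lay between 5.28 and 5.86 in MT-1 and between 4.45 and 5.62 in MT-2. IL5, the eosinophil growth factor, lay between 5.32 and 5.70 in MT-1 and between 4.94 and 6.16 in MT-2. No difference is given for these 3 genes in any comparison.

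Counts of members were set beside the share of all 12942 probe sets tested that met the same rule, a difference of 1 or more between the deposited values with the higher array above background. The rule does not use the bounds, so that IL13 in MT-2 and IL26 in MT-1 enter the OR21 counts although no difference is given for them. With the combination, 3 of the 5 tested members were higher in MT-2 (IL10, IL6 and IL13) where 3.69% of all probe sets were, and 1 was lower (IL26) where 1.48% were. In MT-1, 2 were higher with the combination (IL26 and IL22), where 8.9% of all probe sets were, and 0 were lower (background 8.82%). With OR21 the same 3 members were higher in MT-2 (background 1.21%) and IL26 was lower (background 1.21%), while in MT-1 IL26 was higher (background 3.42%) and 0 were lower (background 3.32%). With EPZ-6438, 1 member was higher in MT-2, IL10, where 0.58% of all probe sets were, and 0 in MT-1, where 0.58% were. The EPZ-6438 counts of lower members were 0 in both lines (background 0.185% for MT-1 and 0.162% for MT-2). Untreated MT-2 was higher than untreated MT-1 in 3 (IL26, IL6 and IL10), where 10.9% of all probe sets were, and lower in 0, where 24% were. The OR21 count in MT-1 became 2 with the 90th percentile as background, which added IL22, and 0 with the 99th. With the 99th percentile the MT-2 counts of higher members with OR21 and with the combination became 2, without IL13.

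Across the lines, a treatment was repeated only in the sense that each line received it, at different doses. limma, fitted to all 8 arrays with line and treatment as terms and 3 residual degrees of freedom, called 0% of probe sets for OR21, EPZ-6438, the combination or the departure of the combination from the sum of the single agents. At an unadjusted p under 0.05 there were 1079, 285, 2489 and 223 of the 12942 probe sets tested. These counts were not set beside the number that would pass with no effect, and nothing rests on them. For the combination, IL10 had an effect of 1.29 ± 0.31 (SE, limma adjusted p = 0.172), IL6 of 1.66 ± 0.72 (limma adjusted p = 0.278) and IL13 of 1.61 ± 0.86 (limma adjusted p = 0.341). IL22 had an effect of 3.56 ± 1.87 (limma adjusted p = 0.335) and IL26, whose responses opposed each other, of 0.97 ± 1.81 (limma adjusted p = 0.789). The residual SDs of this fit, which hold the difference between the responses of the lines, were 0.36 for IL10, 1.01 for IL6, 1.21 for IL13, 2.59 for IL26 and 2.67 for IL22. For OR21, the effect was 1.54 ± 0.72 for IL6 (limma adjusted p = 0.596) and 0.53 ± 0.31 for IL10 (limma adjusted p = 0.622). For EPZ-6438 the adjusted p from limma was 0.9999 for each of the 5. The MT-1 levels of IL10, IL6 and IL13 that enter these effects were not above background on any array. With levels under background raised to it, the combination effect was 0.72 for IL10, 1.41 for IL6, 0.50 for IL13, 2.06 for IL22 and 0.15 for IL26. That setting was chosen after the data were seen. Without the MT-2 combination array limma called 740 probe sets, among them IL22 (7.01, limma adjusted p = 0.0336). The combination is then the single MT-1 array, through which IL22 passed the filter, its spread is assumed to be that of the other groups, and the effect is set against levels under background, so that nothing on IL22 rests on this fit.

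IFNG, IL26 and IL22 stand side by side in the reference gene table, between DYRK2 and MDM1. In MT-1 with the combination, IL26 and IL22 were above background and IFNG was not. The genes around them differed by less. DYRK2, a kinase, differed by -0.44 with the combination in MT-1, MDM1 by 0.34, CAND1 by 0.40, RAP1B by 0.11 and NUP107 by 0.18, and GRIP1 was not above background on any array. In MT-2, where IL26 was lower, CAND1 differed by -0.49, RAP1B by -0.14 and NUP107 by -0.38 with the combination, DYRK2 by at least 0.04, and MDM1 was not above background.

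**Figure D3:**
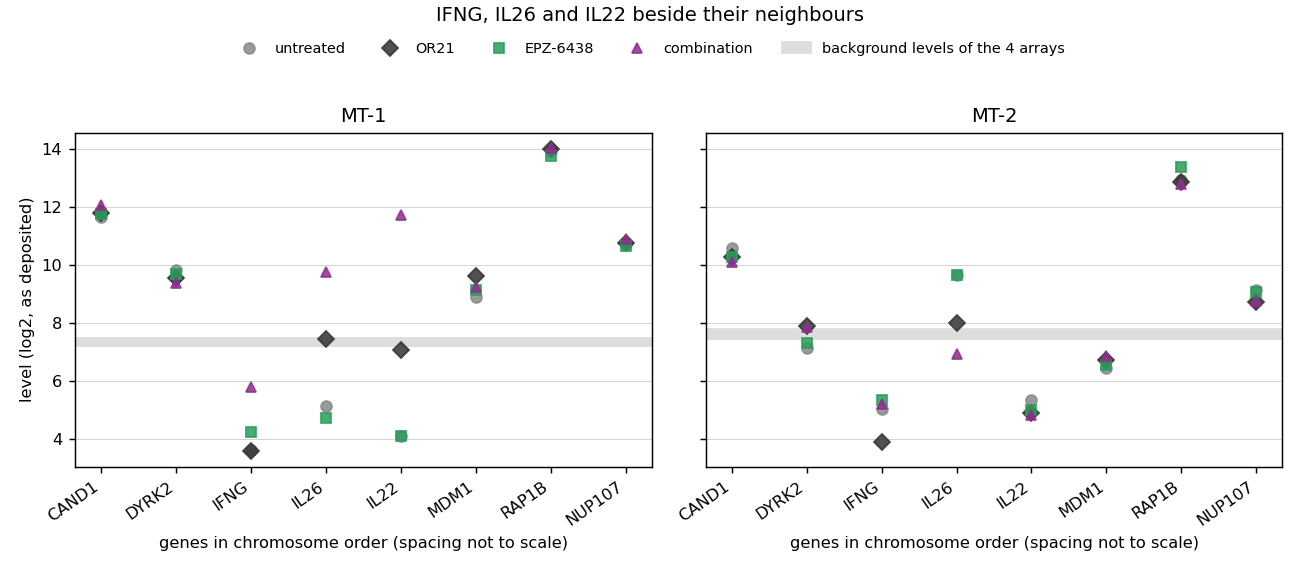
Deposited log2 levels (vertical axis) of IFNG, IL26, IL22 and their nearest measured protein-coding neighbours above background on some array, in chromosome order with spacing not to scale, for MT-1 (left) and MT-2 (right). Each symbol is 1 array and the grey band spans the background levels of the 4 arrays of the line. Comparisons hold within a gene, and in MT-1 the combination separates from untreated for IL26 (9.77 against 5.14) and IL22 (11.74 against 4.10).

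The neighbours of the other members varied. Next to IL6, which was higher in MT-2, STEAP1B was higher in MT-1 by at least 1.76 with OR21 and at least 2.96 with the combination and was not above background in MT-2, while TOMM7, on the other side, differed by -0.53 (MT-1) and -0.04 (MT-2) with the combination. Beside IL10, its family members IL19, IL20 and IL24 were not above background on any array, and MAPKAPK2 differed by -0.30 in MT-2 with the combination. Beside IL13 and IL5, the type 2 cytokine IL4 was not above background, RAD50, which hosts the control region of the locus, differed by -0.07 in MT-1 with the combination, and IRF1 was higher there by at least 2.82. Beside IL21, IL2 was not above background, FGF2 differed by -1.02 with OR21 and NUDT6 by -1.44 with the combination in MT-1. Beside IL9, SMAD5 was higher with the combination by 1.06 (MT-2) and at least 0.94 (MT-1). DYRK3, near IL10, was higher by 1.54 in MT-1 with the combination and by 0.01 in MT-2, the line with IL10 above background. SLC22A5, near IL13 and IL5, differed by -1.31 or lower in MT-1 with OR21. Of 37 neighbours in all, 13 were above background on no array, a count that was not made over all probe sets. By measured change or bound, 3 of the 37 were higher by 1 or more with the combination in MT-1 and 1 was lower. In MT-2 the counts were 1 and 0. By deposited values, 8.9% of all probe sets tested were higher and 8.82% lower in MT-1, and 3.69% and 1.48% in MT-2. The neighbours named here are thus picked cases.

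Among 21 other T cell cytokines with a probe set, 10 were tested, and 1 differed by 1 or more with the higher array above background under a treatment, with the combination in MT-2, where 3.69% of all probe sets were higher by that rule. It was LTA (lymphotoxin alpha, which shapes lymphoid tissue), at 5.15 in untreated MT-2, 6.76 with OR21, 5.69 with EPZ-6438 and 8.16 with the combination. LTA was higher by at least 0.36 with the combination, the background being 7.80 on the untreated array. The median change of these 10 with the combination was -0.05 (MT-1) and 0.47 (MT-2), against -0.05 and -0.02 over all probe sets tested. IL2, IL3, IL4 and IL31 were not above background on any array.

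Receptors of the members were tested for 11 of the 17 measured. By the same rule of deposited values, the combination was accompanied by 4 higher receptors and 1 lower in MT-1 (background 8.9% and 8.82%). In MT-2 it was accompanied by 1 higher and 0 lower (background 3.69% and 1.48%). The median changes were 0.40 (MT-1) and 0.29 (MT-2), against -0.05 and -0.02 over all probe sets tested. IL6ST, the gp130 chain through which IL6 signals, stood at 7.56, 8.13, 8.03 and 9.62 in MT-1 and at 8.93, 10.54, 9.42 and 11.32 in MT-2 (untreated, OR21, EPZ-6438, combination). With the combination IL6ST was higher by 2.06 (MT-1) and 2.39 (MT-2), an effect across lines of 2.23 ± 0.30 (SE, limma adjusted p = 0.122). In MT-2 its high arrays were the 2 with OR21, as for IL6. IL6R, the ligand-binding chain, was higher by 1.39 (MT-1) and 0.13 (MT-2). IL2RG, the common gamma chain used by the IL9 and IL21 receptors, was higher by 1.15 (MT-1) and 0.94 (MT-2), and IL10RB, shared by the receptors of IL10, IL22 and IL26, by at least 0.20 (MT-1) and 0.12 (MT-2). IL21R, the specific chain for IL21, differed by -0.95 or lower (MT-1) and -0.46 (MT-2). The receptors that follow were chosen after their values were seen. IL10RA, the specific chain of the IL10 receptor, was above background on the 4 MT-2 arrays (9.66 to 9.94) and on none of MT-1, as was IL9R (15.10 to 15.60). IL22RA1 and IL20RA, the specific chains for IL22 and IL26, were above background on none of the 8.

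Of the transcription factors that act at cytokine loci, 25 of 28 measured were tested, and with the combination 6 were higher and 1 lower in MT-1 (background 8.9% and 8.82%), while MT-2 had 1 of each (background 3.69% and 1.48%). BCL6, the repressor of follicular helper cells, was higher by 2.87 (MT-1) and 1.29 (MT-2). PRDM1, the plasma cell and effector T cell regulator Blimp-1, was higher by 2.45 (MT-1) and 0.15 (MT-2), where it stood at 11.61 untreated. AHR, a ligand-activated receptor that promotes IL22 in T cells, stood at 10.55, 10.68, 11.08 and 12.61 in MT-1 and at 14.25, 13.44, 14.66 and 13.76 in MT-2. It was higher by 2.06 with the combination in MT-1 and differed by -0.48 in MT-2. RUNX3 was higher by 1.11 in MT-1, with a difference of -0.05 in MT-2, and FOSL2, an AP-1 subunit, had a difference of at least 1.19 in MT-1 against 0.42 in MT-2. TBX21, the type 1 master regulator, differed by -1.18 in MT-2 and was not above background in MT-1. GATA3, the type 2 master regulator, chosen after its values were seen, was above background on the 4 MT-1 arrays (8.67 to 8.74) and on none of MT-2, the line in which IL13 was above background on 2 arrays.

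Of the JAK-STAT genes, 13 were measured and tested, and 3 were higher with the combination in MT-1 (background 8.9%) and 0 in MT-2 (background 3.69%). STAT3, the transcription factor that IL6, IL10, IL21 and IL22 activate, was higher by 2.31 in MT-1 (7.59 to 9.89) and by 0.45 in MT-2 (12.08 to 12.53). IRF1, an interferon-response transcription factor, had a difference of at least 2.82 in MT-1 against 0.14 in MT-2, and the kinase PIM1 by at least 2.19 in MT-1, with -0.18 in MT-2. SOCS3, the feedback inhibitor of gp130 signalling, named after its values were seen, was not above background on any array. Its MT-2 level was 6.46 untreated and 7.57 with the combination, just under the background of 7.64 on that array, so no difference is given. None of the genes in these lists was called by limma.

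**Figure D4:**
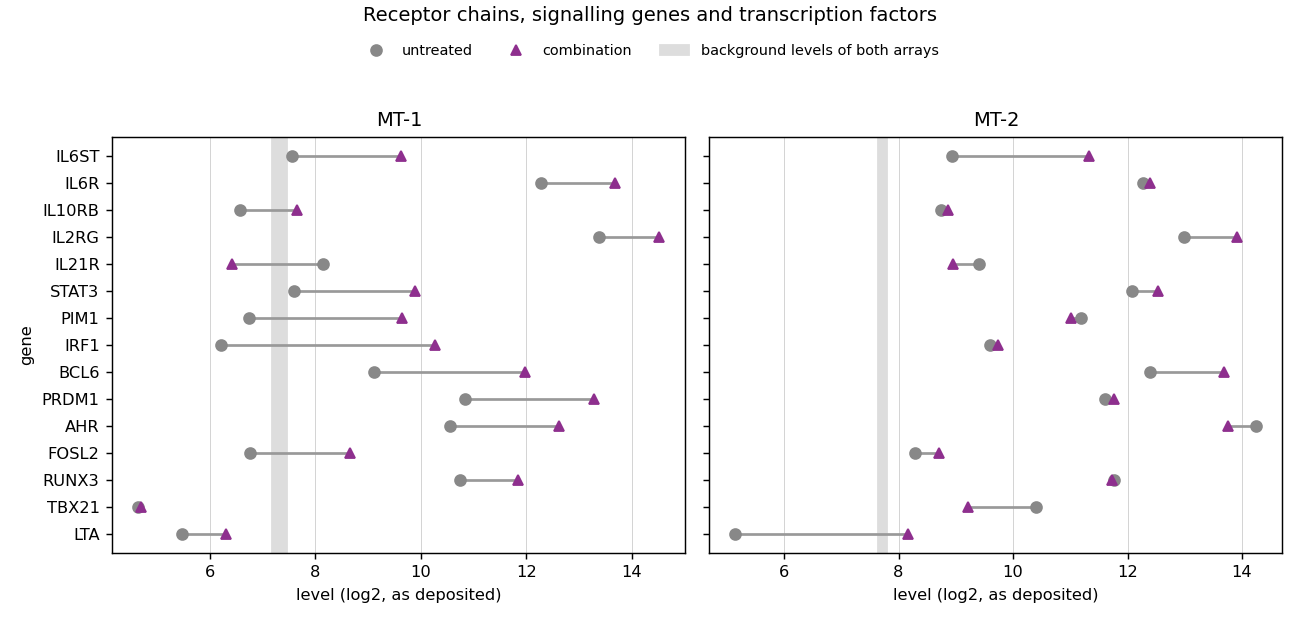
Deposited log2 levels (horizontal axis) of 15 receptor, signalling, transcription factor and cytokine genes, untreated (circles) and with the combination (triangles), joined by a line for each gene, in MT-1 (left) and MT-2 (right), 1 array per point. The grey band spans the backgrounds of both arrays, and comparisons hold within a gene. IL6ST is higher in both lines (by 2.06 and 2.39), while the PRDM1 difference is 2.45 for MT-1 and 0.15 for MT-2.

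Some markers of other cell types were higher with the MT-1 combination, the array on which IL22 and IL26 were highest in that line. Of 20 such markers measured, 0 were above background in untreated MT-1, 3 with OR21, 3 with EPZ-6438 and 6 with the combination (CD79A, GNLY, HBA1, EPCAM, KRT18 and COL1A2), with median levels of 5.11, 5.31, 5.04 and 6.17. In MT-2 the counts were 0, 3, 3 and 2 and the medians 5.26, 5.47, 5.36 and 5.73. Of all 21448 transcript probe sets, 8949 were above background in untreated MT-1 and 9718 with the combination. The background itself was highest on the untreated array of each line (7.46 in MT-1 and 7.80 in MT-2), which bears on the counts of 0. CD79A (6.83 to 7.24) and COL1A2 (7.13 to 7.85) differed by less than 1 in MT-1 with the combination. The other 4 differed by 1 or more, as 8.9% of all probe sets tested did. In MT-1 with the combination, against untreated, GNLY stood at 9.42 against 3.76, HBA1 at 10.00 against 6.94, KRT18 at 9.10 against 5.03 and EPCAM at 8.66 against 4.71. Of the 20, 13 were above background on none of the 8 arrays, among them MS4A1, CD14, LYZ, NCAM1, HBB and COL1A1. The same 5 T cell markers were above background on each of the 4 MT-1 arrays (CD5, CD7, CD28, PTPRC and IL2RA). CD28, a costimulatory receptor of T cells, stood at 12.80 untreated, 11.42 with OR21, 12.36 with EPZ-6438 and 8.72 with the combination, a difference of -1.38 with OR21 and of -4.08 with the combination. The part of these markers in the cytokine levels was not tested.

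Genes whose levels ran most like those of a member were sought among 6869 named probe sets with a range of at least 1, above background on at least 2 arrays. IL22 was above background on 1 array and was not eligible. For IL26 over the 8 arrays the closest were OCLN, a tight junction protein (r = 0.934), RSPH3 (0.929), ALPG (0.929), MOB1A (0.928) and EDARADD (0.927). OCLN stood at 5.57 in untreated MT-1 and 8.57 with the combination, and at 7.96 and 6.44 in MT-2. Over the 6 changes against untreated, the closest to IL26 was JUND, an AP-1 subunit (r = 0.994), which went from 8.48 to 9.60 in MT-1 and from 14.33 to 13.19 in MT-2 with the combination. H4C9 (0.992), ELK1 (0.987), TSPAN5 (0.987) and KPNA2 (0.986) followed.

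For IL6 over the 8 arrays the closest were TNFAIP6, an inflammation-induced hyaluronan-binding protein (r = 0.995), FAM151A (0.994), FSTL3 (0.994), CRADD (0.991) and ULBP3, a ligand of the NKG2D receptor (0.991). TNFAIP6 stood at 7.95, 9.17, 8.06 and 9.54 in MT-2. Over the 6 changes VPS35L (0.992), GTSF1 (0.99), SLC23A2 (0.988), TNFAIP6 (0.987) and RAET1L (0.986) were closest to IL6. For IL13 over the 8 arrays they were GPR171 (0.996), STK32A (0.983), the lymphocyte chemokines XCL2 (0.982) and XCL1 (0.981), and LCE1C (0.977). XCL1 and XCL2 are near-identical genes whose probes may share signal, and XCL1 stood at 8.14, 10.56, 8.47 and 13.11 in MT-2. Over the changes RAET1L (0.994), RHOF (0.992), FOXK1 (0.992), GPR171 (0.991) and STK32A (0.991) were closest to IL13. For IL10 over the 8 arrays, where the lines differ most, they were PHPT1 (0.999), the chemokine receptor ACKR3 (0.999), ZNF518B (0.998), UPK1B (0.998) and GATA4 (0.998), and over the changes SNX2 (0.992), OAT (0.989), SUPT20H (0.987), TANC1 (0.983) and WASHC1 (0.982). These correlations are descriptions over 8 arrays or 6 changes that share their arrays, their line and, for the changes, the untreated array of each line. They use deposited values, levels not above background included, for which no difference is given elsewhere. IL26 was above background on 5 of the 8 arrays, IL6 and IL10 on 4 and IL13 on 2. For IL13, the combination in MT-2 was the only change against untreated that could be given.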

How the data were processed

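Gene expression was measured on 8 1-colour arrays, 1 per line and treatment. The deposited log2 values were made by the authors with RMA, per the submitters' processing notes. No RMA version, annotation release or array genome build was found in those sources, and base 2 is inferred because RMA returns it. Values ran from 2.14 to 18.91, so a rescaling after RMA is possible. Of 24351 entries, 2903 control probe sets were left out, 612 of them negative controls that gave the background. Of the 21448 transcript probe sets, 17709 had 1 gene symbol in the platform annotation, 0 several and 3739 none. 0 columns were left unused.

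Probe sets were tested where the highest value reached the median of the table (12942). limma 3.58.1 in R 4.3.3 (lmFit and eBayes, line and treatment as terms) used Benjamini-Hochberg adjustment over all of them. The fit was also run on simulated data in which both lines shifted alike, which does not cover lines that respond differently. The spread is that between the responses of the lines, which received different doses. Gene order comes from GRCh38.p14 in RefSeq.

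The members and gene lists were chosen with earlier results of these data known. All members were named. From each list, genes were named that differed by 1 or more from the untreated array of their line with the higher array above background, up to 6 by size of change. The 3 nearest measured protein-coding neighbours on each side and the 5 most similar genes of each eligible member were also named. Alternatives were median centring, cyclic loess, other background percentiles, no filter, an intensity trend and leaving out each array. An alternative that sets levels under background to it was chosen after seeing the data.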

Additional observations from a re-analysis of the deposited data

Results flagged for a closer look

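IL26 was picked out because its change with the combination ran in opposite directions in the lines, higher by at least 2.31 (MT-1) against a difference of -2.00 or lower (MT-2), with 1 array per group. The difference between the lines was not tested.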

How the results depend on the processing

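Each line and treatment had 1 array, so no error within a line can be given, and signal over background limits IL13, IL22 and IL26, which lay near or under it on most arrays. No paired analysis was possible because the labels give no replicate numbers to pair by, other than the line itself, which is a term of every limma fit. Of 12 counts of members, 58 of 60 alternative values kept the reported count within 1.5 times. The others were for OR21 in MT-1, with 2 members at the 90th percentile of background and 0 at the 99th. Within that limit, the MT-2 counts of higher members with OR21 and with the combination fell from 3 to 2 at the 99th percentile, where IL13 was lost. Leaving out the filter could not change any of these counts. Members that failed it lay under 6.573 on every array, and the lowest background was 7.19. Of 75 alternative values of the differences within and between lines, 13 moved by more than 0.25 and 0 reversed. That limit is the median residual SD of limma over all probe sets. All 13 were at the 99th percentile, where 6 differences could not be given. The differences were not computed at the 90th percentile, where backgrounds lay between 6.51 and 7.02 and the bounds would differ. The 99th percentile was thus the only other background tried for them. Counts of probe sets called by limma stayed at 0 except for the combination, with 10 under an intensity trend, and when arrays were left out, with 0 to 740 for the combination and 0 to 7 for its departure from the sum of the single agents, both highest values without the MT-2 combination array. The cause was not tested.

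Effects across lines from limma turned sign in 32 of 260 alternative values. When levels under background were raised to it, the OR21 effect was -0.84 for IL26, -0.09 for IL13 and -0.20 for IL22, the EPZ-6438 effect of IL13 was -0.28 and the IL10 departure from the sum was -0.17. Median centring of the arrays put the EPZ-6438 effect of IL13 at 0.00, with its sign turned. Leaving out 1 array at a time gave OR21 effects of -1.49 to 2.13 for IL26 and -0.72 to 3.25 for IL22. EPZ-6438 effects were -2.30 to 1.88 for IL26, -0.57 to 1.27 for IL6, -0.99 to 1.06 for IL13 and -2.16 to 1.81 for IL22. The combination gave -2.11 to 4.05 for IL26 and 0.11 to 7.01 for IL22. Departures from the sum were -2.22 to 3.94 for IL26, -1.22 to 0.76 for IL6, -0.29 to 0.69 for IL10, -0.88 to 1.94 for IL13 and -0.99 to 5.92 for IL22. The fit without an array of a treatment rests on the other line for it.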
